A study of Mus musculus with 12 samples.

Results

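The immediate early AP-1 and EGR genes measured here were Fos, Fosb, Fosl1, Fosl2, Jun, Junb, Jund, Egr1, Egr2 and Ier2. They were taken by gene symbol from the annotation of an Affymetrix mouse array, which gave 10 genes with 15 probe sets, of 18193 genes named on the array. Where a gene had several probe sets, the one with the highest mean over the 12 arrays stands for it. Of the 10 genes, 9 lay within the 60% of probe sets with the highest means and were tested among 13067 genes, and Fosl1 did not.

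RNA came from mouse ES cells D3, an embryonic stem cell line, in 4 groups of 3 arrays. Control day0 is the line before differentiation, without an agent. Control day8 is the differentiated culture without an agent, and BPA day8 and NP day8 are differentiated cultures that received the agent of that name. All 4 groups share the line and its culture over MMC-treated fibroblasts (feeder cells). In the day 8 groups this was followed by embryoid bodies, the aggregates in which ES cells differentiate. Comparisons with control day0 cannot tell differentiation from the change of culture. Neither doses nor a vehicle nor the agents' full names are in the labels. Nothing says that replicates came from separate cultures, so the p-values may rest on a technical spread.

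Immediate early genes are transcribed within minutes of a growth factor, stress or serum signal, without new protein synthesis. Kinases of the MAPK cascade activate factors such as SRF, the ELK proteins and CREB, which sit ready at these promoters. AP-1 is a dimer of basic leucine zipper proteins: JUN proteins pair with each other or with FOS proteins, whereas FOS proteins need a JUN partner to bind DNA. EGR proteins are zinc finger factors induced by the same signals and restrained by the NAB corepressors. In ES cells these genes report on FGF and ERK signalling, and their RNA also responds to handling of the cells.

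Values are log2 signals scaled per array, so 1 unit is a doubling. They compare 1 gene between groups and say nothing about one gene against another. Pou5f1, the central transcription factor of pluripotent cells, read 11.32 to 11.54 on control day0 arrays, 6.81 to 8.49 on control day8, 10.54 to 10.59 with BPA and 9.94 to 10.97 with NP. Afp, a serum protein of yolk sac and liver, lay under the background level of 3.41 on all 3 control day0 arrays and at 10.61 to 12.46 on the 9 day 8 arrays. The background level is the highest value of 3 bacterial control probe sets (TrpnX) over the 12 arrays. Between 58.3% and 62.3% of all probe sets lay above it on every array.

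Junb, Egr1, Egr2 and Ier2 fell and Jun rose in each of the 3 day 8 groups against control day0. On its main probe set Fosl2 fell with both agents, but the mean of both its probe sets did not pass. Fos fell with NP, a call that ended in 18 of 25 alternatives. In control culture neither passed, at -0.76 for Fos and -0.60 for Fosl2. No member passed the threshold between either agent and control day8. In bulk samples, fewer cells of a type and less RNA per cell cannot be told apart.

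Of the 9 genes tested in control day8 against control day0, 5 passed an adjusted p of 0.05 (4 lower, 1 higher), which is 55.6%, beside 48.7% of all genes tested (28.3% higher, 20.5% lower). The same 5 had an unadjusted p under 0.05, as did 54.3% of all genes. The share of members called was thus close to that of all genes. The median change of the 9 was -0.94, against 0.12 over all genes. The groups did not overlap for 6 of 9 members, beside 56.8% of all genes.

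**Figure D1:**
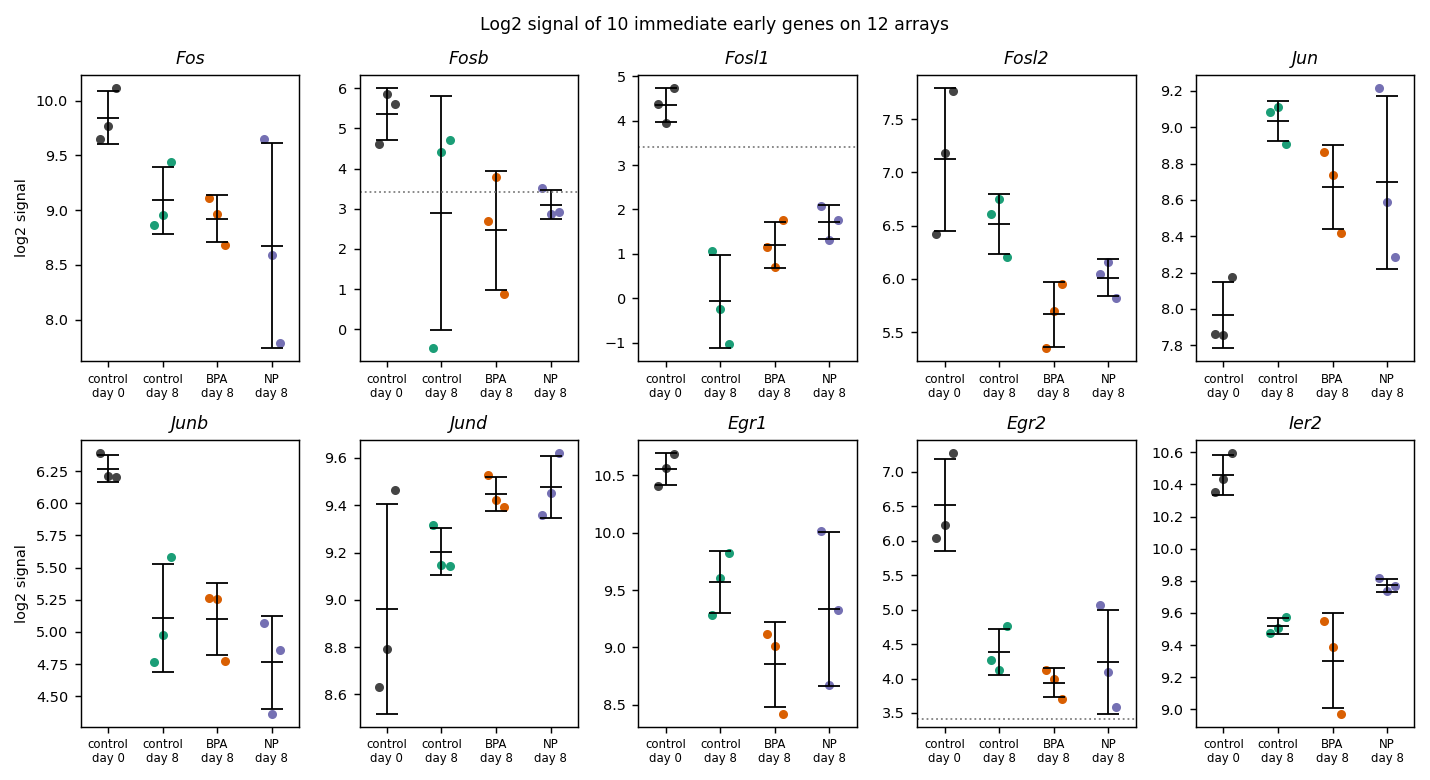
Log2 signal of each of the 10 genes (vertical axis, its own range in each panel) on the 3 arrays of each group. Points are arrays, and bars show the mean and 1 SD. The dotted line is the background level of 3.41, drawn where a gene comes near it. The control day0 arrays are the highest for Fos, Fosl1, Junb, Egr1, Egr2 and Ier2, with Fos on 1 NP array at the level of the lowest of them, and are the lowest for Jun.

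Of the genes for JUN proteins, the partners of FOS proteins, Jun rose, Junb fell and Jund did not pass. Jun read 7.86, 7.86 and 8.18 on control day0 arrays, 9.08, 9.11 and 8.91 on control day8, 8.86, 8.74 and 8.42 with BPA, and 9.22, 8.59 and 8.28 with NP. All 9 day 8 values lay above all 3 day 0 values, and the day 8 groups overlapped each other except for BPA and control day8. The rise in control culture was 1.07 ± 0.22 (standard error of the log2 change, n = 3 arrays per group, adjusted p = 0.00328). A second Jun probe set gave 1.43 ± 0.27. The rises with BPA (0.71 ± 0.22, adjusted p = 0.0362) and NP (0.73 ± 0.22, adjusted p = 0.0319), both against control day0, were smaller. The BPA call was lost without control day0 replicate 1 or 2, control day8 replicate 1, or BPA replicate 1 or 2 (adjusted p up to 0.109). It was also lost after median centring (0.0862) and without the filter (0.0629). The NP call ended without control day0 replicate 1 or 2 or NP replicate 1 or 2 (adjusted p up to 0.0923), and after median centring (0.0752). It also ended with only the compared groups in the fit (0.1) and without the filter (0.0569).

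Junb, which often restrains AP-1 activity driven by JUN, went the other way. It read 6.39, 6.21 and 6.21 at day 0, 4.77, 4.98 and 5.58 on control day8, 5.27, 5.26 and 4.78 with BPA, and 5.07, 4.37 and 4.86 with NP. Every day 8 array lay under every day 0 array. The changes against control day0 were -1.16 ± 0.25 in control culture (adjusted p = 0.00347), -1.17 ± 0.25 with BPA and -1.50 ± 0.25 with NP, and all 3 passed with each array left out in turn. Jund, the JUN protein that cells make most constantly, read 8.63, 8.79 and 9.47 at day 0, 9.32, 9.15 and 9.14 on control day8, 9.53, 9.42 and 9.39 with BPA, and 9.36, 9.45 and 9.62 with NP. Its day 0 arrays overlapped each day 8 group through replicate 3. The changes of 0.24 ± 0.19, 0.49 ± 0.19 and 0.51 ± 0.19 in turn did not pass (adjusted p = 0.336, 0.0783 and 0.0671). Without control day0 replicate 3 they were 0.49, 0.74 and 0.77 and passed (adjusted p = 0.00893, 0.00226 and 0.00202). The changes with BPA and NP also passed with a trend and robust prior (0.0259 and 0.0198). A second Jund probe set, above background on 6 of 12 arrays, was at 1.25, 1.15 and 1.63 in turn, none past the threshold.

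The stretches of DNA just upstream of the start sites are shown for Jun, which rose, Junb and Egr2, which fell, and Fos, which lay lower. They are RefSeq sequences of build GRCm38.p6, 250 bases ending at the base before the listed start, 5′ to 3′ on the strand of the gene. Promoters of 7 of the 10 genes were used, without those of Egr1, Fosl1 and Ier2. Capitals mark matches, on either strand, to the CArG box (the core of the SRF site), TGACG (the core of a CREB or ATF site), TGACTCA (the classical AP-1 site), TGACATCA (the AP-1 variant known from the Jun promoter), GCGNGGGCG (the EGR site) and TATAAA. Jun lies at chr4:95052223-95052472 on the minus strand, Fos at chr12:85473640-85473889 on the plus strand, Junb at chr8:84978749-84978998 on the minus strand and Egr2 at chr10:67537619-67537868 on the plus strand. For Egr2, which has 5 listed starts, the middle one is shown.
Jun: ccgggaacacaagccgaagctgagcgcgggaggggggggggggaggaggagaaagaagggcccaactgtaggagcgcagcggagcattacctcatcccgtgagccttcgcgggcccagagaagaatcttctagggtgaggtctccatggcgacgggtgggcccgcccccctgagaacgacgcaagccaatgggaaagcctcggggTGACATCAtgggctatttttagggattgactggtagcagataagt
Fos: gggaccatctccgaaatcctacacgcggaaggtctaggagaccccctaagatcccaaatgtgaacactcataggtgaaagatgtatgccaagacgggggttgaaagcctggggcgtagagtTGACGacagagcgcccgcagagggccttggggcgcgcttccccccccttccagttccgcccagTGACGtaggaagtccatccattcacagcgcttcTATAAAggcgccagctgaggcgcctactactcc
Junb: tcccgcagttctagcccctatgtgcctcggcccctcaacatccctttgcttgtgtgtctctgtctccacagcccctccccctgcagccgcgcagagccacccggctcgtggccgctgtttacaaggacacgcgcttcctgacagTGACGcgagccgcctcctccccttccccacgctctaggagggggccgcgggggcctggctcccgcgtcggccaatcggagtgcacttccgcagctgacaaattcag
Egr2: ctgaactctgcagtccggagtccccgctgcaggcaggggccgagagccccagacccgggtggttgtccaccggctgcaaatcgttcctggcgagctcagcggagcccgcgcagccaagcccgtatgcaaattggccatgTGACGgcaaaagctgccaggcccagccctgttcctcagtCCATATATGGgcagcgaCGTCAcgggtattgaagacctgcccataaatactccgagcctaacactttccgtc

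The Jun stretch held TGACATCA from position -45 to -38 relative to the start, a match found in 2.93% of 32851 promoter windows of 250 bases. The Egr2 stretch held a CArG box from -72 to -63, which 1.47% of all windows had. It also held TGACG at -111 and, on the other strand, at -55. Fos held TGACG at -129 and -66 and TATAAA at -33, and Junb held TGACG at -106. TGACG occurred in 17.8% of windows and TATAAA in 12.4%. The EGR site (4.70% of windows) stood at -50 in Fosb and -79 in Fosl2, and TGACTCA (4.46% of windows) in none of the 7 genes. Jund had none of the 6 motifs. These are matches of letters in a short window, with no measurement of binding. Sites further upstream than 250 bases were not searched. A link between the motifs and the direction of a gene's change was not tested.

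FOS proteins bind DNA only with a JUN partner, and their 4 genes differed in how far they could be measured. Fos read 9.65, 9.77 and 10.12 at day 0, 8.87, 8.96 and 9.44 on control day8, 9.11, 8.97 and 8.69 with BPA, and 9.65, 8.59 and 7.78 with NP. No day 8 array exceeded the lowest day 0 array, and NP replicate 1 came closest to it, while NP replicate 3 was the lowest of all 12. The control change of -0.76 ± 0.39 did not pass (adjusted p = 0.143). It passed without NP replicate 1 (0.0341) and with only the compared groups in the fit (0.037). With BPA the change from day 0 was -0.93 ± 0.39 (adjusted p = 0.0981), which passed without NP replicate 1 or 3 (0.0221 and 0.0353). With NP it was -1.17 ± 0.39 (adjusted p = 0.0464). That call ended when any 1 array other than NP replicate 1 was left out (adjusted p up to 0.122), with only the compared groups in the fit (0.135) and with the replicate block (0.0721).

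Fosl2, which encodes the stable FOS protein Fra-2, read 6.42, 7.18 and 7.77 at day 0, 6.61, 6.75 and 6.20 on control day8, 5.35, 5.70 and 5.96 with BPA, and 6.05, 6.16 and 5.82 with NP. Every array with an agent lay under every array of both control groups, whose ranges overlapped each other. Against control day0 Fosl2 was at -1.45 ± 0.31 with BPA (adjusted p = 0.00611) and -1.11 ± 0.31 with NP (adjusted p = 0.0217). In control culture it was at -0.60 ± 0.31 (adjusted p = 0.138), and at -0.95 without control day0 replicate 1 (adjusted p = 0.015). The NP call ended without control day0 replicate 2 or 3 or NP replicate 1 or 3 (adjusted p up to 0.0644), and with only the compared groups in the fit (0.0728). A second Fosl2 probe set disagreed: its group means were 3.71, 3.68, 4.24 and 4.19, and its changes against control day0 were -0.03, 0.53 and 0.48 in turn, none past the threshold. With the mean of both probe sets neither agent's call remained (adjusted p = 0.17 for BPA and 0.354 for NP).

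Fosb and Fosl1 were near or under the background level after differentiation. Fosb, a FOS protein with strong transactivation, read 4.61, 5.86 and 5.60 at day 0, -0.47, 4.42 and 4.71 on control day8, 2.71, 3.79 and 0.88 with BPA, and 3.51, 2.88 and 2.93 with NP. All 3 day 0 arrays lay above background, against 2 of 3 on control day8 and 1 of 3 with each agent. As deposited, the changes from day 0 were -2.47, -2.90 and -2.25 and did not pass (adjusted p = 0.133, 0.103 and 0.203). Without control day8 replicate 1, those with BPA and NP passed (0.0108 and 0.0313). With every value under background set to it, Fosb was at least 2.26-fold lower on control day8 (adjusted p = 0.0166), at least 3.53-fold lower with BPA (0.00248) and at least 3.77-fold lower with NP (0.00202). Fosl1, which encodes Fra-1, read 4.38, 3.95 and 4.73 at day 0 and lay under background on all 9 day 8 arrays, at -1.03 to 2.08. It was therefore at least 1.93-fold lower in each day 8 group. A second Fosl1 probe set lay under background on all 12 arrays.

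The EGR genes and Ier2, a small nuclear protein induced with them, fell in every day 8 group. Egr2 read 6.04, 6.23 and 7.28 at day 0, 4.27, 4.12 and 4.76 on control day8, 4.12, 3.99 and 3.70 with BPA, and 5.06, 4.09 and 3.58 with NP. Even the highest day 8 array, NP replicate 1, lay under the lowest day 0 array. The changes from day 0 were -2.13 ± 0.41 in control culture (adjusted p = 0.00203), -2.57 ± 0.41 with BPA (0.00142) and -2.27 ± 0.41 with NP (0.00288), and these calls held with each array left out in turn. A second Egr2 probe set was at -2.12 ± 0.85 in control culture, and lay under background on 2 of 3 arrays with BPA and 2 of 3 with NP. Used as the gene's value, it did not pass in control culture (adjusted p = 0.0818) or with NP (0.0671).

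Egr1 read 10.41, 10.57 and 10.69 at day 0, 9.29, 9.60 and 9.82 on control day8, 9.12, 9.01 and 8.42 with BPA, and 10.01, 8.67 and 9.32 with NP. All day 8 arrays lay under all day 0 arrays, and the BPA arrays also lay under all control day8 arrays. The fall in control culture was 0.99 ± 0.32 (adjusted p = 0.0267). That call ended without control day0 replicate 2 or 3 or control day8 replicate 1 or 2 (adjusted p up to 0.0886), and after quantile normalization (0.0591). Against control day0 Egr1 was at -1.70 ± 0.32 with BPA (adjusted p = 0.00298) and -1.22 ± 0.32 with NP (adjusted p = 0.0158, and 0.056 with only the compared groups in the fit).

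Ier2 had the smallest standard error of the 9 tested genes. It read 10.35, 10.43 and 10.60 at day 0, 9.48, 9.50 and 9.58 on control day8, 9.55, 9.39 and 8.97 with BPA, and 9.82, 9.74 and 9.77 with NP. The day 0 arrays were the highest and the NP arrays came next, above every control day8 and BPA array. The changes from day 0 were -0.94 ± 0.14 in control culture (adjusted p = 0.000474), -1.16 ± 0.14 with BPA (0.000342) and -0.69 ± 0.14 with NP (0.0053), and all 3 calls held with each array left out in turn.

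Counted over the members, 6 of 9 passed in BPA day8 against control day0 (5 lower, 1 higher, beside 33.6% of all genes called, 21.7% higher and 11.9% lower). In NP day8 against control day0 it was 7 of 9 (6 lower, 1 higher, beside 32.1%, 20.2% higher and 11.9% lower). An unadjusted p under 0.05 was reached by 9 and 8 of them, and by 44.1% and 42.4% of all genes. The medians were -1.17 and -1.17, against 0.14 and 0.10 over all genes. Groups did not overlap for 8 of 9 members in each, beside 49.4% and 47.6% of all genes. The 3 comparisons with control day0 share its arrays. The NP count was 4 without control day0 replicate 2, and 4 with only the compared groups in the fit.

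Control day8 and the agents were then compared, which asks what each agent did at the same day. With BPA 0 of 9 members passed by limma, beside 22.2% of all genes (12% higher, 10.2% lower), and 2 had an unadjusted p under 0.05 (35.6% of all genes did). These were Fosl2 at -0.85 ± 0.31 (adjusted p = 0.079, 95% interval -1.54 to -0.15) and Egr1 at -0.72 ± 0.32 (adjusted p = 0.135, -1.42 to -0.01). The Fosl2 difference passed without control day0 replicate 1 (adjusted p = 0.0289) or replicate 3 (0.0371). The second Fosl2 probe set was higher with BPA, at 0.56 ± 0.44, and the mean of both was at -0.15 (adjusted p = 0.72). With NP 0 of 9 members passed by limma, beside 14.2% of all genes (7.9% higher, 6.28% lower), and 0 had an unadjusted p under 0.05 (28.6% of all genes did). The NP values of Fosl2 and Egr1 were -0.51 ± 0.31 and -0.23 ± 0.32. Groups did not overlap for 4 of 9 members with BPA and 3 of 9 with NP, beside 41.6% and 34.8% of all genes.

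The 95% intervals bound the differences that were not called. For Jun it was -0.86 to 0.14 with BPA and -0.84 to 0.17 with NP, and for Ier2 -0.53 to 0.10 and -0.06 to 0.57. For Fos it was -1.05 to 0.71 and -1.30 to 0.47. Fosb had the widest, -3.23 to 2.37 with BPA and -2.58 to 3.02 with NP.

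**Figure D2:**
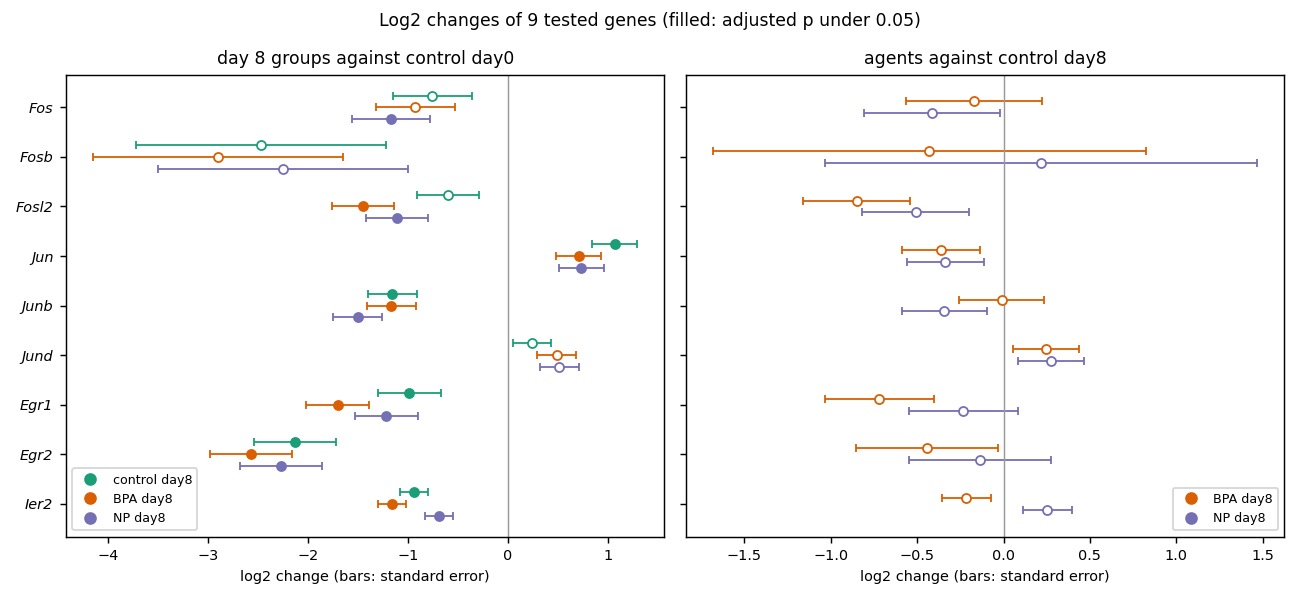
Log2 change (horizontal axis) with its standard error for the 9 tested genes, in the day 8 groups against control day0 (left) and in the agents against control day8 (right). Filled points passed an adjusted p of 0.05. On the left all points of Fos, Fosb, Fosl2, Junb, Egr1, Egr2 and Ier2 lie below 0 and all points of Jun and Jund above it, and on the right no point is filled.

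Set directly against each other, NP day8 and BPA day8 differed for 0 of 9 members by limma, beside 0.00765% of all genes, which was 1 gene. Ier2 alone had an unadjusted p under 0.05 (8.38% of all genes did), at 0.47 ± 0.14 higher with NP (adjusted p = 0.436, 95% interval 0.15 to 0.79). Its 3 NP arrays lay above its 3 BPA arrays, the only such member of 9, beside 17% of all genes. For Egr1 the difference was 0.48 ± 0.32 (adjusted p = 0.728, -0.22 to 1.19).

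For comparison, all 11 pluripotency markers measured fell in control day8 against control day0, with a median of -2.80 (20.5% of all genes fell). All 11 were higher with BPA (median 2.15) and with NP (median 1.89) than on control day8, beside 12% and 7.9% of all genes. The 7 members with lower values on control day8 than on day 0 had no call toward day 0 with either agent. The group means of Fos, Fosl2 (main probe set), Junb, Egr1 and Egr2 lay further below day 0 with both agents than in control culture. As deposited, Fosb and Ier2 (-2.47 and -0.94 in control culture) lay further below it with BPA (-2.90 and -1.16). With NP they lay nearer to it (-2.25 and -0.69). Jun lay nearer to day 0 with both agents (0.71 and 0.73, against 1.07 in control culture), and Jund further above it. None of these differences from control day8 passed. Whether the 2 sets differ was not tested.

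**Figure D3:**
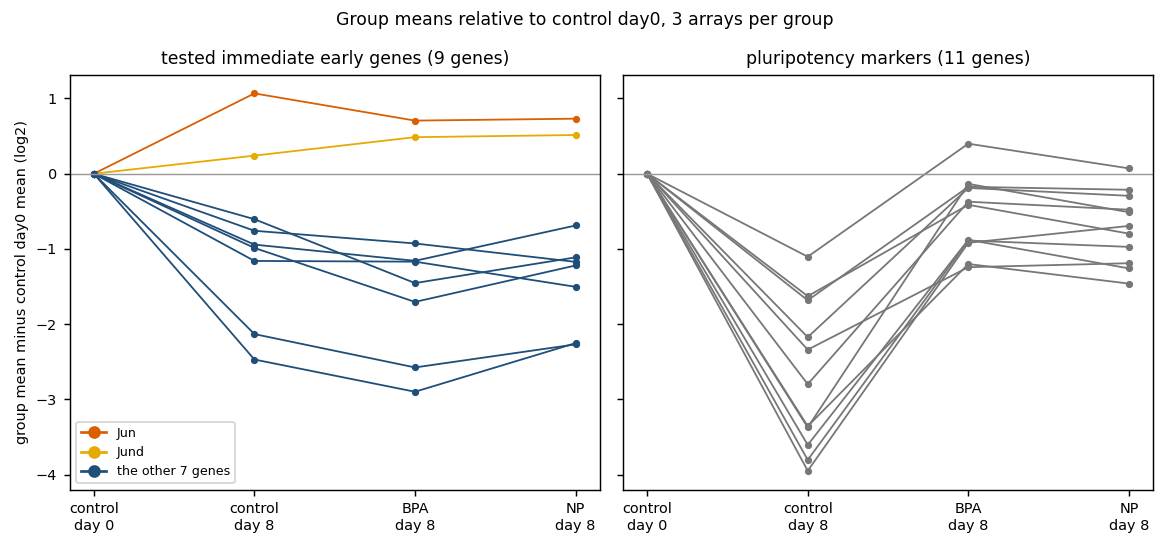
Group mean minus the control day0 mean (log2, vertical axis) for the 9 tested members (left) and the 11 pluripotency markers (right). A line joins the 4 group means of 1 gene, 3 arrays each. The markers drop on control day8 and lie higher with both agents, where all but Dppa3 are still below 0. The members below 0 on control day8 also stay below 0 with both.

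Replicates spread unevenly within the agent groups. NP replicate 1 had the highest value of its group for 8 of the 10 members and BPA replicate 3 the lowest for 8 of 10. Control day0 replicate 3 was the highest for 8 of 10. The counts include Fosl1, under background on all arrays with an agent, and Fosb, under background on 2 of 3 with each agent. The shares over all genes are not given, so a trait of the members cannot be told from a shift of the whole array. For Fos, NP replicates 1 and 3 deviated from their group mean by 0.97 and -0.89, and for Egr2 by 0.82 and -0.66. Ier2, by contrast, deviated by at most 0.04 on the NP arrays.

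**Figure D4:**
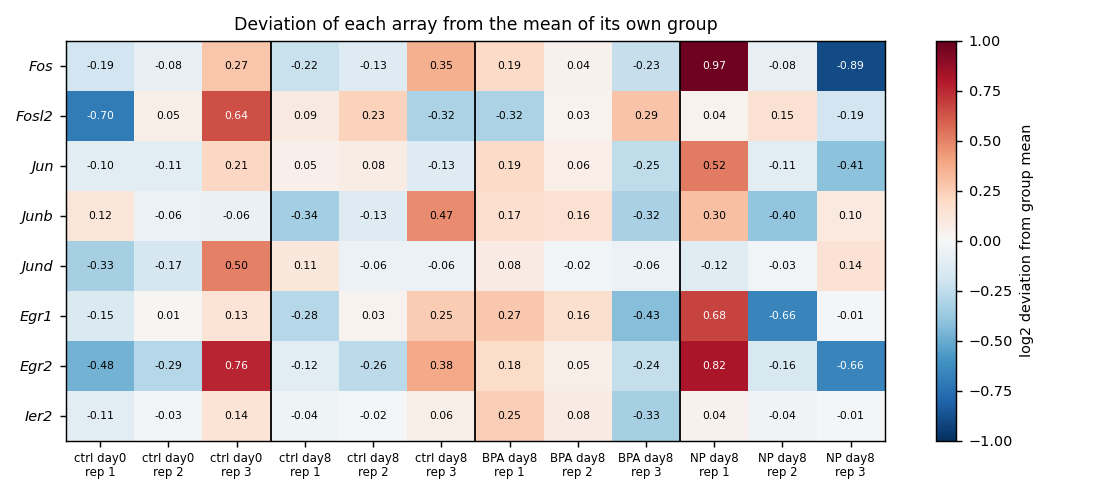
Deviation of each array from the mean of its own group (log2, colour and printed value) for the 8 members above background on every array. NP replicate 1 is red for Fos (0.97), Egr2 (0.82), Egr1 (0.68) and Jun (0.52), and BPA replicate 3 is blue for Egr1 (-0.43) and Ier2 (-0.33).

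Other genes of the pathway gave the surroundings. Of 13 tested genes for other AP-1 and leucine zipper partners, 4 rose and 1 fell in control day8 against control day0 (38.5%, median 0.47). Of all genes, 48.7% were called in that comparison. Maf, a large MAF protein, rose by 3.68 ± 0.25, and Jdp2, a partner of JUN that represses AP-1 targets, by 1.82 ± 0.21. On its probe set of highest variance Jdp2 was at 0.58 (adjusted p = 0.49). Against control day8, Maf was at -1.30 ± 0.25 with BPA (adjusted p = 0.00569, and 0.0566 with the mean of its probe sets). Jdp2 was lower with BPA (-0.83 ± 0.21, adjusted p = 0.0211) and with NP (-0.78 ± 0.21, adjusted p = 0.0403). Jdp2's call with BPA was lost when control day8 replicate 1 or 3 or BPA replicate 1 was left out (adjusted p up to 0.0736), and its NP call without any control day8 or NP array or BPA replicate 2 or 3 (up to 0.117). With the mean of its probe sets the NP value of Jdp2 was -0.36 (0.576), and on the probe set of highest variance its BPA value did not pass (0.107).

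Of 38 tested members of a list of other immediate early genes, 7 rose and 10 fell in control culture (44.7%, near the 48.7% of all genes, median -0.16). Ptgs2, the inducible cyclooxygenase, fell by 2.90 ± 0.49. Plk3, a stress kinase, was at least 4.78-fold lower and Arc, a cytoskeletal protein known from neurons, at least 4.91-fold lower, each with 1 control day8 array under background. Errfi1, a feedback inhibitor of the EGF receptor, rose by 1.19 ± 0.23. With BPA 7 rose and 3 fell, and with NP 6 rose and 3 fell (26.3% and 23.7%, beside 22.2% and 14.2% of all genes). Ptgs2 was at -1.78 ± 0.49 with BPA and -1.68 ± 0.49 with NP, calls that ended with some arrays left out (adjusted p up to 0.101 and 0.163). Zfp36l1 was at -0.69 ± 0.15 and -0.55 ± 0.15, and its NP call ended likewise (up to 0.133). Nr4a2 was lower with BPA (-1.04 ± 0.25) and Gadd45g with NP (-0.83 ± 0.22), for which no alternatives are given. Dusp1, the phosphatase that switches off MAPK signals, rose by 0.86 ± 0.10 with BPA and by 0.88 ± 0.10 with NP, and both calls held with each array left out. Spry4, an inhibitor of the FGF receptor pathway, rose by 1.22 ± 0.29 and 1.59 ± 0.29, but with the mean of its probe sets the adjusted p was 0.0897 and 0.121. Plk3 was at least 5.18-fold higher with BPA and at least 4.26-fold higher with NP than on control day8, and the NP call ended without NP replicate 1 or 2 (adjusted p up to 0.0823).

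Of 17 upstream kinases and serum response factors, 5 rose and 2 fell in control culture (41.2%, beside 48.7% of all genes, median 0.26). Mapkapk2 and Rps6ka3, kinases downstream of p38 and ERK, rose by 1.43 ± 0.18 and 1.41 ± 0.22. Srf itself was at -0.45 ± 0.16 (adjusted p = 0.0427), a call that was lost without control day0 replicate 2 or 3, control day8 replicate 2 or 3, or any BPA or NP array (adjusted p up to 0.139). Against control day8 0 rose and 4 fell with BPA, and 0 rose and 3 fell with NP (23.5% and 17.6%, beside 22.2% and 14.2% of all genes). Srf was at -0.66 ± 0.16 with BPA (adjusted p = 0.0174), lost without control day8 replicate 1, replicate 2, or BPA replicate 2 or 3 (up to 0.0644). With the mean of its probe sets Srf was at -0.31 (0.156), and on its probe set of highest variance at 0.04. Rps6ka3 was at -0.96 ± 0.22 with BPA (adjusted p = 0.0119), a call kept in all 25 alternatives. Elk3, an SRF partner of endothelial and mesenchymal cells, was at -1.22 ± 0.26 with NP (adjusted p = 0.0149), and did not pass without control day8 replicate 2 (0.0541) or with the mean of its probe sets (0.11). Nab1, a corepressor of EGR proteins, was at 0.56 ± 0.15 in control culture (adjusted p = 0.0104, and 0.0617 after median centring). It was at -0.85 ± 0.15 with BPA and -0.77 ± 0.15 with NP. The other corepressor, Nab2, was at 0.07, -1.64 and -0.80 and did not pass.

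Of 15 tested genes known as AP-1 or EGR targets, 2 rose and 7 fell in control culture (60%, beside 48.7% of all genes, median -0.99). Mmp3, a matrix metalloprotease, was at least 11.6-fold lower, with 2 control day8 arrays under background. Ereg, a ligand of the EGF receptor, lay under background on all 3, at least 11.7-fold lower. With BPA 2 rose and 3 fell (33.3%, beside 22.2% of all genes), and with NP 1 rose and 3 fell (26.7%, beside 14.2%). The median changes with BPA and NP were 0.48 and 0.22, against 0.04 and 0.01 over all genes. Hmox1 rose by 0.80 ± 0.15 with BPA (adjusted p = 0.0059) and by 0.57 ± 0.15 with NP (0.0374). Plaur rose by 0.76 ± 0.23 with BPA (0.0431). No alternatives are given for Hmox1 and Plaur. Cd44, the hyaluronan receptor, was at -1.70 ± 0.21 with BPA and -1.71 ± 0.21 with NP, and Fn1, fibronectin, at -1.09 ± 0.20 and -1.20 ± 0.20. On its probe set of highest variance Cd44 did not pass with either agent (adjusted p = 0.133 and 0.373).

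The summed feeder and heat shock signals and the Actb measure of RNA quality differed between the agent groups and both control groups. Of the 15 feeder fibroblast and matrix genes, 5 were higher and 7 lower on control day8 than at day 0 (80%, beside 48.7% of all genes). With each agent 1 was higher and 14 lower than at day 0 (beside 33.6% of all genes called with BPA and 32.1% with NP). The summed signal of the 15 genes was 7984 to 10218 at day 0, 7397 to 10559 on control day8, 1073 to 1304 with BPA and 997 to 1328 with NP. On control day8 Pdgfra, a growth factor receptor of mesenchyme, was at 3.38 ± 0.21 against day 0, and the matrix genes Lum and Postn at 2.94 ± 0.30 and 2.51 ± 0.32. The fibroblast markers Thy1 and S100a4 went the other way and read 7.98 to 8.51 and 9.81 to 10.55 at day 0, and on day 8 arrays 0.05 to 4.35 and 0.91 to 4.32. None of the 15 genes lay under background on all 3 arrays of a group. Of 11 heat shock genes, 1 rose and 6 fell in control culture (63.6%, beside 48.7% of all genes), among them Hsph1, a chaperone (-1.19 ± 0.14). With BPA 3 rose and 1 fell (36.4%, beside 22.2% of all genes), and with NP 3 rose and 0 fell (27.3%, beside 14.2%). Hspb1, a small heat shock protein, was at 1.41 ± 0.19 and 1.15 ± 0.19. The summed signal of the heat shock genes was 40634 to 42811 at day 0, 26149 to 30868 on control day8, 34380 to 36552 with BPA and 32719 to 37626 with NP. The log2 difference between the 3′ and 5′ probe sets of Actb, which grows as RNA degrades, was 1.22 to 1.36 at day 0, 1.27 to 1.42 on control day8, 1.52 to 1.72 with BPA and 1.46 to 1.64 with NP. For Gapdh it was 0.20 to 0.35 at day 0, 0.23 to 0.31 on control day8, 0.22 to 0.44 with BPA and 0.31 to 0.35 with NP. With only the compared groups in the fit, some calls against control day8 ended. With BPA these included Plk3, Srf and Ptgs2 (adjusted p = 0.0553, 0.0571 and 0.0527). With NP they included Plk3, Elk3, Nab1, Fn1 and Hspb1 (0.11, 0.0588, 0.0578, 0.0585 and 0.0535), and Ptgs2 and Zfp36l1 (0.122 and 0.132). The part of feeder markers, heat shock genes and RNA quality in the members' changes was not tested.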

How the data were processed

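RNA on 12 Affymetrix arrays was measured, 3 in each of 4 groups, grouped by the sample titles. The deposited file holds one log2 signal for each probe set and array. Per the submitters' processing notes the authors used MAS5, whose version and scaling target are not given in the sources used here. The back-transformed signals had a trimmed mean of 100.04 on each array (2% left out at each end). The platform's gene table named 34958 of 45101 probe sets with 1 gene, 932 with several and left 9211 unlisted. Of those with 1 gene, 34754 matched RefSeq by Entrez identifier (GRCm38.p6).

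Values were used as deposited. The 60% of non-control probe sets with the highest mean (27023) were kept, 1 per gene. limma 3.58.1 (R 4.3.3) estimated 4 group means from the 12 arrays together, and its moderated test was 2-sided, with Benjamini-Hochberg adjustment over 13067 genes in each of 6 comparisons. No array was left out. The number of arrays limits precision. The fit was tested on simulated data.

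The members and lists were chosen with earlier results of these data known, and the background level, the alternative that sets lower values to it, and the motifs after the data were seen. The 10 members were always named. Other genes were named from fixed lists, up to 3 per direction and list among those past the threshold. Same-numbered replicates did not deviate together: the correlation of their deviations over genes was -0.01 to 0.08 in 18 pairs. Alternatives were pseudocounts, filters, scalings, probe set choices, variance priors, array weights, groups in the fit, a replicate block and each array left out.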

Additional observations from a re-analysis of the deposited data

How the results depend on the processing

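Over 54 results for single members and 1344 alternative values, 1231 kept their direction and side of the threshold, 47 lost a call, 37 gained one and 29 changed sign. Of 18 member calls, 9 kept their call under every alternative run and 0 changed sign. The count of members called in BPA day8 against control day8 was 1 in place of 0 with the top 40% of probe sets, with the trend and robust prior and with array weights, and 0 to 1 with arrays left out in turn. In NP day8 against control day0 it was 4 in place of 7 with only the compared groups, and 4 to 7 with arrays left out. The cause was not tested.

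The sign changes of members all fell in differences between day 8 groups that had not passed. In BPA against control day8, Fosb was at 0.78 with array weights and -2.11 to 0.48 with arrays left out. Junb was at 0.051 after quantile normalization, 0.028 after median centring, 0.19 with array weights and -0.18 to 0.23 with arrays left out. Jund was at -0.10 on its probe set of highest variance, and Fos at -0.28 to 0.0078 with arrays left out. In NP against control day8, Fosb was at -0.27 and -0.20 with 16 and 32 added to the signal, at -0.74 with values under background set to it and at -1.46 to 1.13 with arrays left out. Averaging its probe sets put Fosl2 at 0.00035. With arrays left out, Fos was at -0.90 to 0.033, Egr1 at -0.57 to 0.10 and Egr2 at -0.55 to 0.19. In NP against BPA, Fosb was at -0.094 with values under background set to it and -0.14 to 1.31 with arrays left out. With array weights Jun was at -0.013 and Jund at -0.00025. With arrays left out Jun was at -0.23 to 0.23, Jund at -0.043 to 0.088, Fos at -0.73 to 0.20 and Egr2 at -0.10 to 0.64. Among other named genes, the probe set of highest variance gave 0.042 for Srf with BPA and 0.063 for Jdp2 with NP, both against control day8.

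The same replicate numbers occur in all groups, and the labels do not say whether they pair the arrays. The correlations of -0.01 to 0.08 between same-numbered replicates cannot settle it, as differently numbered ones were not compared. With the replicate block 5, 0, 0, 0, 6 and 6 members were called in control day8 against control day0, BPA and NP against control day8, NP against BPA, and BPA and NP against control day0, where the fit without it gave 5, 0, 0, 0, 6 and 7. The call lost was that of Fos. Over all genes tested the median change in control day8 against control day0 was 0.12 as deposited and 0.01 after quantile normalization or median centring, and no member call changed direction with it. Values near the background level limit what can be said of Fosb and Fosl1.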

Other observations

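The genes whose log2 values ran most like those of 3 members were listed by Pearson correlation over the 12 arrays, as a description. These values hold the differences between groups as well as the spread within them, and all genes share the arrays and their scaling. For Jun the 5 highest were Btbd1 (0.97), Usp19, Dmrta2, Celf2 and Hs3st3b1 (each 0.96). Dmrta2, a transcription factor of neural progenitors, had group means of 3.36, 6.79, 5.63 and 5.81 on control day0, control day8, BPA and NP arrays. For Egr1 they were Tlk1 (0.94), Rrm1 (0.91), Nap1l1, Cipc and Ap4s1 (each 0.90). For Fos they were Lrrc40 (0.95), Wnt9a, Tpm2 and Tcp1 (each 0.89) and Ddx47 (0.88). None of these 15 genes is another member.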
